A study of Mus musculus with 6 samples.

Results

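Ecel1, Greb1, Phf21b and Rprm are 4 genes linked to oestrogen or to the ventrolateral part of the ventromedial hypothalamus (VMHvl), and they were taken by their symbols from a table of 47480 genes. All 4 had a row and all 4 passed the filter on low values. They were chosen by their normalised counts in VMHpvlm against VMHpvll, so that difference is given here as a description, without a test. RNA was sequenced from laser-captured VMHpvlm and VMHpvll, neighbouring parts of the ventromedial hypothalamus (VMH), of female mice that carried VgluT2-cre and the Ai6 reporter in both groups. VgluT2-cre acts in cells that express the glutamate transporter VgluT2 (Slc17a6), and Ai6 then marks them with a green fluorescent protein. Whole tissue areas were captured, so each library holds RNA of all the cell types in them. There were 3 libraries from VMHpvlm and 3 from VMHpvll, and the titles of both regions share the names F19, F20 and KH_161103. The sources used here give no age, no hormone state and no number of animals behind a library.

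The oestrogen receptor encoded by Esr1 is a transcription factor that oestradiol switches on, and it binds DNA at oestrogen response elements or through other factors. In the VMHvl, neurons that express Esr1 take part in female sexual behaviour and aggression, and oestradiol induces the progesterone receptor gene Pgr there. Ecel1 encodes a membrane peptidase of neurons related to the endothelin-converting enzymes. Greb1 encodes a cofactor of the oestrogen receptor and is a classical oestrogen-induced gene of human breast cancer cells. Phf21b encodes a histone-binding protein with a PHD finger. Rprm encodes Reprimo, a protein that the tumour suppressor p53 induces and that halts the cell cycle in dividing cells. No hormone was varied between the libraries according to the labels, so the link of the genes to oestrogen is background and was not measured.

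On mm10, Ecel1 lies on chromosome 1 from 87147655 to 87156521, Greb1 on chromosome 12 from 16670615 to 16800886, Phf21b on chromosome 15 from 84785381 to 84856049 and Rprm on chromosome 2 from 54084093 to 54085552, all on the minus strand. All 4 are annotated as protein-coding, with 3.5 kb of exon sequence for Ecel1, 9.58 kb for Greb1, 4.264 kb for Phf21b and 1.46 kb in 1 exon for Rprm. Exons of Greb1 overlap the antisense gene Gm48140, and since the sources used here do not state the use of strand in counting, reads of the pair cannot be told apart. Exons of Ecel1, Phf21b and Rprm overlap no other annotated gene.

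The 4 genes were picked for their contrast between the regions, so their shared direction is no ground to expect a shared promoter feature. Their promoters are shown because the oestrogen receptor is known to act at promoters. Each is 250 bases before the transcription start and 50 bases after it, from RefSeq on GRCm38.p6, the assembly that mm10 names. All are read 5′ to 3′ on the minus strand, with matches to GGTCA or its reverse complement TGACC, the core of an oestrogen response element, in capitals.
Ecel1, chr1:87156307-87156606: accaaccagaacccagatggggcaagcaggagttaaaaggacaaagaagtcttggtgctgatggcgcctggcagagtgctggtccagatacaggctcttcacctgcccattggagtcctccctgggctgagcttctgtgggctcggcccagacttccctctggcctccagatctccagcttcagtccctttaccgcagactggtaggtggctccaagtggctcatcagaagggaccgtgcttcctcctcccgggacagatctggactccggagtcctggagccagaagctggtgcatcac
Greb1, upstream start, chr12:16800837-16801136: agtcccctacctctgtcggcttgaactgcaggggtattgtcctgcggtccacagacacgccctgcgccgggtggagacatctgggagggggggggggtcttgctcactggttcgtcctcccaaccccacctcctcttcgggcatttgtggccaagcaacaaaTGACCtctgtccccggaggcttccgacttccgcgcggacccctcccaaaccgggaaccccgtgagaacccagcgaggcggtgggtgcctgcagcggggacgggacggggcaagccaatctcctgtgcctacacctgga
Greb1, downstream start, chr12:16757190-16757489: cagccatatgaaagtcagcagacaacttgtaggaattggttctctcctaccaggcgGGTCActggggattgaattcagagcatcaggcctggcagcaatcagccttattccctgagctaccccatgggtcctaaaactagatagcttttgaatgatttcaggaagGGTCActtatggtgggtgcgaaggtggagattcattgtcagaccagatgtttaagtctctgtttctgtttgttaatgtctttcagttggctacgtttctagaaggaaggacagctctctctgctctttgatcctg
Phf21b, chr15:84855050-84855349: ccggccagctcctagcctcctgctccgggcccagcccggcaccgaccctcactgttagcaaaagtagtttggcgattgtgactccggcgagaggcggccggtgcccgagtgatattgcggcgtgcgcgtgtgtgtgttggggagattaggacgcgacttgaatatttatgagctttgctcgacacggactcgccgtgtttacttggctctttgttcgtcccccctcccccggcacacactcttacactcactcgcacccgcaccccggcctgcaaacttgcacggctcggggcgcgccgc
Rprm, chr2:54085503-54085802: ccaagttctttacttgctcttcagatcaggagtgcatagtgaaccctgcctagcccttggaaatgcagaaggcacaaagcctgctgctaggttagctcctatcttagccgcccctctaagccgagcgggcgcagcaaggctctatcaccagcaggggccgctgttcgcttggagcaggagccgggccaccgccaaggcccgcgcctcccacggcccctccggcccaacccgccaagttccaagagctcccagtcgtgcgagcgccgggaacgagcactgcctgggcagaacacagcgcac

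The core stood 1 time in the upstream promoter of Greb1 and 2 times in the downstream one. Counted from the start, its first base was at -88 in the upstream promoter, and at -194 and -85 in the downstream one. The windows of Ecel1, Phf21b and Rprm held 0 matches. The core stood in 40.5% of 32851 RefSeq promoters of the same length, searched on both strands. The full element, GGTCA and TGACC with 3 bases between them, stood in 0 of the 5 promoters shown and in 0.0700% of all. The site CAAGGTCA of SF-1 (Nr5a1), which contains GGTCA, also stood in 0 of the 5 and in 1.56% of all. A match in these windows is a description of their letters and not evidence of binding. Sequence outside the windows was not searched, so the lack of a match says nothing about sites elsewhere. Bases G and C made up 59.0% of the Ecel1 promoter, 65.3% of the upstream and 46.3% of the downstream promoter of Greb1, 63.0% of the Phf21b promoter and 63.3% of the Rprm promoter, against a median of 52.7% over all promoters.

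The libraries held between 7157831 and 11293159 reads over all genes. Nr5a1, which defines the VMH, was at 308 ± 19.5 in VMHpvlm and 31.5 ± 6.73 in VMHpvll (normalised read counts, SD, n = 3 libraries per region here and below), and Fezf1, another VMH gene, was at 1191 ± 15.6 and 642 ± 14.3, so the defining marker was low in VMHpvll. Summed with Nptx2, which was lower in VMHpvlm, the VMH markers came to 2358 to 2495 in VMHpvlm and 1815 to 1882 in VMHpvll. Slc17a6 was at 4665 ± 139 in VMHpvlm and 4946 ± 17.1 in VMHpvll. Summed over 3 GABAergic markers, the level was 798 to 1054 in VMHpvlm and 1991 to 2306 in VMHpvll. Summed over 6 oligodendrocyte markers it was 10946 to 12542 in VMHpvlm and 14828 to 15910 in VMHpvll, over 5 astrocyte markers 6192 to 7061 and 7041 to 7820.1, over 4 vascular markers 747 to 815 and 1166 to 1318, and over 4 microglia markers 802 to 863 and 859.97 to 975. Of these, all 3 GABAergic, 5 oligodendrocyte, 2 astrocyte, all 4 vascular and 0 microglia ones were lower in VMHpvlm by limma with Benjamini-Hochberg adjustment. By the same test, 9.48% of all 14522 genes tested were lower in VMHpvlm and 10.5% higher. None of these markers was listed at 0 in a library. Of 5 arcuate markers, Kiss1 was listed at 0 in all 6 libraries and Agrp in at least 1, with a summed level of 114 to 349.8 in VMHpvlm and 49.3 to 113 in VMHpvll. Among them Pomc was higher and Ghrh lower in VMHpvlm by limma. Over 2 lateral hypothalamus markers the sum was 48.1 to 175 in VMHpvlm and 74.8 to 188 in VMHpvll, and Hcrt was listed at 0 in at least 1 library. The part of these cell types in the differences below was not tested, and in such bulk samples fewer cells of a type and less RNA per cell cannot be told apart.

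Each of the 4 genes was lower in VMHpvlm than in VMHpvll in 3 of 3 pairs of libraries with the same name, and the regions did not overlap for any of them. Over all 14522 genes tested, 13.5% had all 3 VMHpvlm libraries below all 3 VMHpvll libraries. The genes were picked for this contrast, so their count cannot be read against that share. The sizes differed: Phf21b stood farthest apart, Ecel1 next, and Greb1 and Rprm least.

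**Figure D1:**
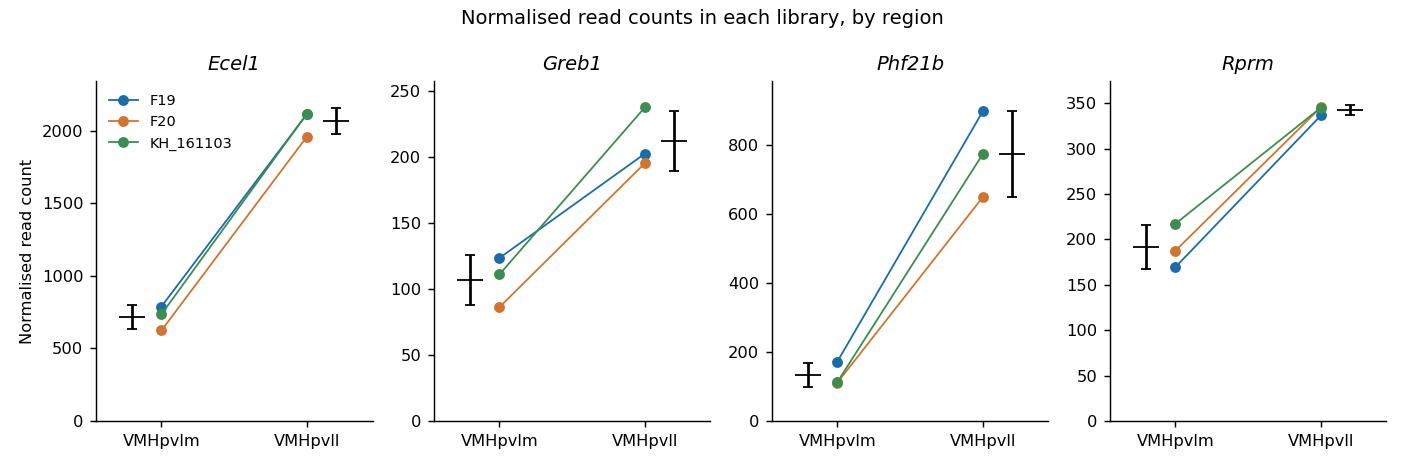
Normalised read counts of Ecel1, Greb1, Phf21b and Rprm in each library, with VMHpvlm left of VMHpvll, 1 line per library name, and the mean and SD of each region drawn in black (n = 3). All 3 lines rise toward VMHpvll in each panel, and Phf21b shows the widest gap, at 132 ± 34.8 in VMHpvlm and 774 ± 124 in VMHpvll.

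Phf21b, the histone-binding gene, had 172, 111 and 113 normalised counts in the F19, F20 and KH_161103 libraries of VMHpvlm, against 898, 649 and 774 in those of VMHpvll. The F19 library was the highest and the F20 library the lowest in both regions, and the lowest VMHpvll library was 3.77 times the highest VMHpvlm library. The mean in VMHpvlm was 17.0% of that in VMHpvll. The log2 difference of VMHpvlm against VMHpvll, taken from log2(value + 1), was -2.38 for F19, -2.54 for F20 and -2.77 for KH_161103, with a mean of -2.56 ± 0.20 (SD, n = 3 pairs). This difference ranked 20 of 14522 toward VMHpvll. Between 80 and 127 reads stood behind each VMHpvlm value and between 436 and 848 behind each VMHpvll value.

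Ecel1, the neuronal peptidase gene, had 788, 623 and 735 normalised counts in the F19, F20 and KH_161103 libraries of VMHpvlm, against 2115, 1959.9 and 2117 in those of VMHpvll. The F20 library was the lowest in both regions, and the F19 and KH_161103 libraries of VMHpvll were nearly equal. The mean was 715 ± 84.2 in VMHpvlm and 2064 ± 90.2 in VMHpvll, and the VMHpvlm mean was 34.7% of the other. By pair, the log2 differences were -1.42 (F19), -1.65 (F20) and -1.53 (KH_161103), with a mean of -1.53 ± 0.11 (SD, n = 3 pairs), the 98th of 14522 toward VMHpvll. Of the 4 genes it had the most reads, between 449 and 2319 per library.

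Greb1, the receptor cofactor gene, had 123, 86.1 and 111 normalised counts in the F19, F20 and KH_161103 libraries of VMHpvlm, against 202, 195 and 237 in those of VMHpvll. The F20 library was again the lowest in both regions, but the highest was F19 in VMHpvlm and KH_161103 in VMHpvll. The mean was 107 ± 18.9 in VMHpvlm and 212 ± 22.6 in VMHpvll, so that VMHpvlm held 50.4% of the VMHpvll level. The log2 difference was -0.71 for F19, -1.17 for F20 and -1.09 for KH_161103, with a mean of -0.99 ± 0.25 (SD, n = 3 pairs), the widest spread between pairs of the 4 genes. Greb1 ranked 260 of 14522 toward VMHpvll, and its values rest on 62 to 122 reads in VMHpvlm libraries and 131 to 260 in VMHpvll libraries.

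Rprm, the Reprimo gene, had 169, 187 and 217 normalised counts in the F19, F20 and KH_161103 libraries of VMHpvlm, against 336, 346 and 345 in those of VMHpvll. The VMHpvll libraries were close together, with a coefficient of variation of 1.51%, against 12.6% in VMHpvlm, where KH_161103 was the highest. The mean was 191 ± 24.1 in VMHpvlm and 342 ± 5.16 in VMHpvll, and the VMHpvlm mean was 55.9% of the other. The log2 difference was -0.99 for F19, -0.88 for F20 and -0.67 for KH_161103, with a mean of -0.84 ± 0.16 (SD, n = 3 pairs), the 357th of 14522 toward VMHpvll. Behind the values stood 125 to 378 reads per library.

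Levels of the 4 genes were compared with each other per kb of exon, since a longer gene collects more reads. The order was Ecel1, Rprm, Phf21b and Greb1, from high to low, in all 6 libraries. In normalised counts per kb, Ecel1 averaged 204 ± 24.1 in VMHpvlm and 589.7 ± 25.8 in VMHpvll, above 86.9% and 96.9% of the tested genes of known length. Rprm averaged 131 ± 16.5 in VMHpvlm and 234 ± 3.53 in VMHpvll, above 78.4% and 89.1% of genes. Phf21b averaged 30.9 ± 8.15 in VMHpvlm and 181 ± 29.2 in VMHpvll, above 39.7% of genes in VMHpvlm and 85.3% in VMHpvll. Greb1 was low in both regions, at 11.1 ± 1.98 per kb in VMHpvlm and 22.1 ± 2.36 in VMHpvll, above 18.03% and 31.1% of genes. In VMHpvll the neighbours Rprm and Phf21b stood closest, at 230.4 to 237 and 152 to 211 per kb, without overlap.

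The level of each gene was also set against Esr1 in the same library, a ratio that does not depend on how libraries were scaled. Esr1 had 568, 429 and 543 normalised counts in the F19, F20 and KH_161103 libraries of VMHpvlm, against 1559.8, 1477 and 1434 in those of VMHpvll. Per 100 counts of Esr1, Ecel1 had 139, 145 and 135 in the F19, F20 and KH_161103 libraries of VMHpvlm, and 136, 133 and 148 in those of VMHpvll. The regions overlapped fully on this ratio, with means of 139.8 ± 5.08 in VMHpvlm and 139 ± 7.92 in VMHpvll. Phf21b did not keep to 1 ratio, with 25.6 ± 4.79 per 100 counts of Esr1 in VMHpvlm and 51.8 ± 7.06 in VMHpvll, and its regions did not overlap. Greb1 had 20.7 ± 0.87 in VMHpvlm and 14.2 ± 2.003 in VMHpvll, and Rprm had 37.8 ± 7.17 and 23.0 ± 1.29, also without overlap. Relative to Esr1, Phf21b was thus lower in VMHpvlm, Greb1 and Rprm were higher there, and Ecel1 was level. For Phf21b, Greb1 and Rprm the same held per 100 counts of Pgr. Phf21b was at 10.7 ± 2.39 in VMHpvlm and 22.7 ± 3.38 in VMHpvll, Greb1 at 8.64 ± 0.93 and 6.19 ± 0.32, and Rprm at 15.6 ± 2.14 and 10.1 ± 0.60, all without overlap. Ecel1 was at 58.1 ± 2.79 in VMHpvlm and 60.6 ± 1.96 in VMHpvll, with overlap. By name it was lower in VMHpvlm in each pair, at 61.3 against 62.4 (F19), 55.9 against 60.8 (F20) and 57.2 against 58.5 (KH_161103). These ratios use the contrast by which the genes were picked and carry no test.

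**Figure D2:**
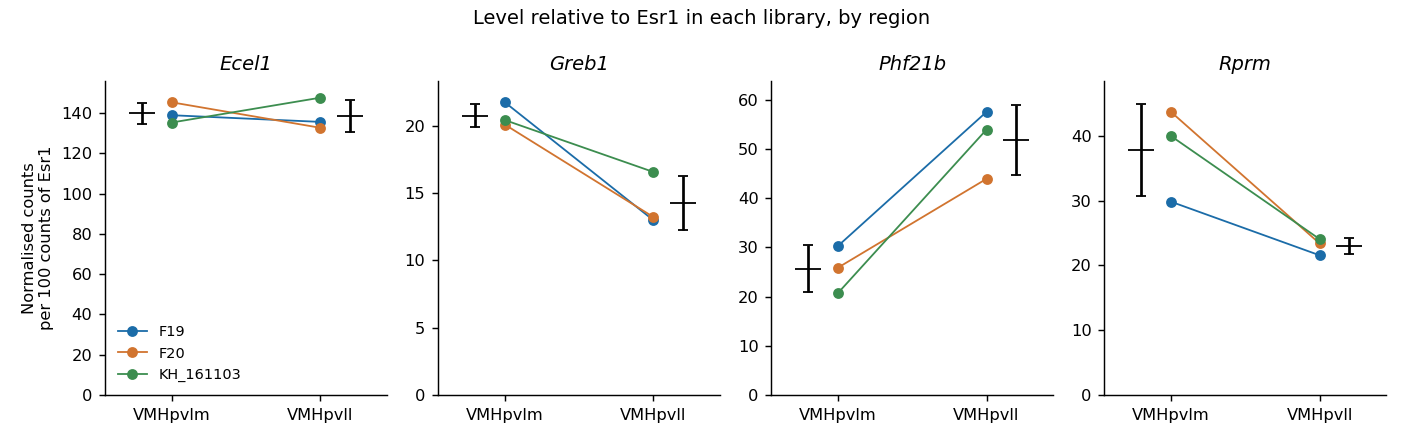
Normalised counts of the 4 genes per 100 counts of Esr1 in the same library, with VMHpvlm left of VMHpvll, 1 line per library name, and the mean and SD of each region drawn in black (n = 3). Ecel1 stays between 133 and 148 in all 6 libraries, Phf21b is at 25.6 ± 4.79 in VMHpvlm and 51.8 ± 7.06 in VMHpvll, and Greb1 and Rprm are higher in VMHpvlm.

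A measure that the choice of the genes did not use is how they varied between the library names F19, F20 and KH_161103 within a region. This was tested as the pair-name term of the model, by limma's moderated F test with Benjamini-Hochberg adjustment over 14522 genes, of which 5.36% were called. Phf21b differed between names (adjusted p = 0.00269): its F19 libraries stood 0.41 and 0.23 above the mean of VMHpvlm and VMHpvll on the log2(value + 1) scale. Its F20 libraries stood at -0.22 and -0.24, and its KH_161103 libraries at -0.20 in VMHpvlm and 0.01 in VMHpvll. Ecel1 did not pass (adjusted p = 0.0596 by limma), with F20 at -0.19 in VMHpvlm and -0.07 in VMHpvll. It passed at 0.0384 by limma where genes with a mean under 50 were left out. Greb1 (limma adjusted p = 0.369) and Rprm (0.604) did not pass, and for Rprm the largest deviations, -0.17 in F19 and 0.19 in KH_161103, were both in VMHpvlm. Among the cell type markers, the GABA-synthesis gene Gad2 also differed between names (limma adjusted p = 0.00804), but the other GABAergic markers Gad1 (0.289) and Slc32a1 (0.353) did not pass. Gad2 and Gad1 were highest in F19 in both regions, as Phf21b was, while Slc32a1 was highest in F19 in VMHpvlm and in F20 in VMHpvll. The lowest library in both regions was KH_161103 for Gad2 and F20 for Phf21b. The arcuate marker Pomc differed between names too (limma adjusted p = 7.23e-09), with F20 the highest library in both regions, where Phf21b was lowest. The other names were not in opposite order, as Pomc was lowest in KH_161103 and Phf21b highest in F19, in both regions. The part of these cell types in the name differences of Phf21b was not tested.

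**Figure D3:**
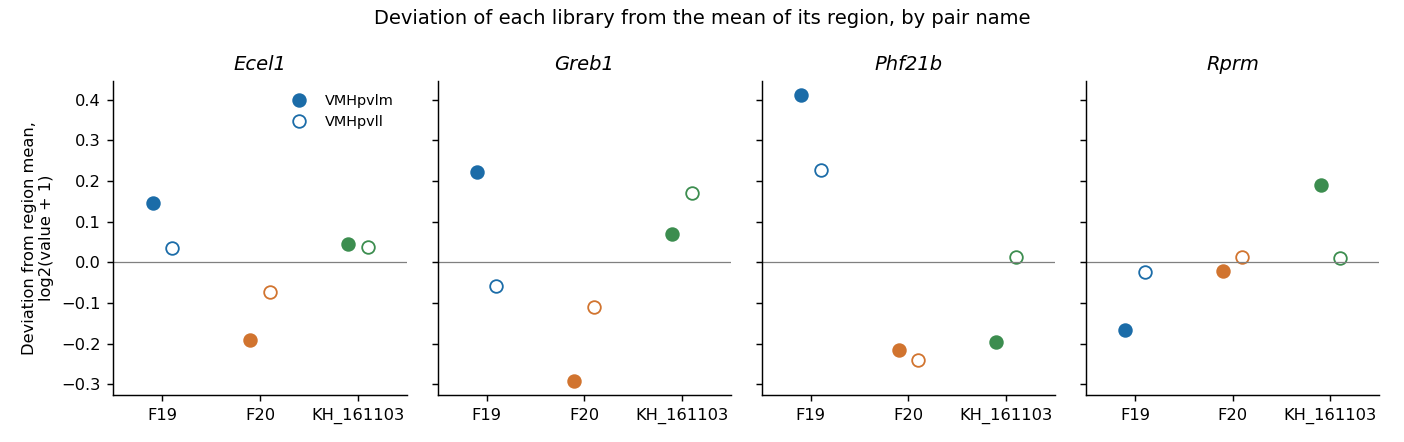
Deviation of each library from the mean of its region on the log2(value + 1) scale, by library name, with filled points for VMHpvlm and open points for VMHpvll. Both F19 points of Phf21b lie above 0, at 0.41 and 0.23, and both F20 points lie below it.

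Among 11126 other genes with a mean of at least 50, the profile closest to Ecel1 over the 6 libraries was that of Gm16485, followed by Esr1 and Pgr. The root-mean-square distance between profiles centred on their own means was 0.03 for Gm16485, 0.06 for Esr1 and 0.06 for Pgr, in units of log2(value + 1). Gm16485 had 708, 587 and 688 normalised counts in the F19, F20 and KH_161103 libraries of VMHpvlm, against 1918, 1765 and 1906 in those of VMHpvll. Gm16485 is a predicted gene 3.18 kb past the end of Pgr on the same strand of chromosome 9 on mm10 (8971791 to 8975773). Pgr itself had 1287, 1115 and 1284 in VMHpvlm, against 3387, 3226 and 3617 in VMHpvll.

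The profiles closest to Greb1 were D930015E06Rik (distance 0.05), Npy1r (0.06) and Me3 (0.09). Npy1r, a receptor for neuropeptide Y, was at 166 ± 28.4 in VMHpvlm and 335 ± 34.7 in VMHpvll. The profiles closest to Rprm were Adra2a (0.06), Chst1 (0.07) and S100a13 (0.09), and Adra2a, an adrenergic receptor, was at 199 ± 18.8 in VMHpvlm and 333.5 ± 10.98 in VMHpvll. Phf21b had no such near neighbour by this distance: the closest were Mad2l1 (0.19), Stat5a (0.21) and Mug1 (0.22). Their Pearson r with Phf21b over the 6 libraries was 0.992, 0.987 and 0.989. For the 3 closest profiles, r was 0.985 to 0.995 for Greb1, 0.981 to 0.996 for Rprm and 0.997 to 0.9996 for Ecel1. Mad2l1, a gene of the spindle checkpoint, was at 96.8 ± 33.1 in VMHpvlm and 468 ± 88.4 in VMHpvll. Annotated exons of Stat5a overlap those of Stat3, and exons of Me3 overlap those of A230065N10Rik. The strand and length of these overlaps were not examined, so how far they affect the reads is uncertain. Between the 4 genes themselves the distances ran from 0.23 for Greb1 and Rprm to 0.92 for Phf21b and Rprm. These distances are descriptions over 6 libraries that share the region contrast, and many genes with a like difference would score close.

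The receptors of oestrogen were lower in VMHpvlm, as the 4 genes were. Over all 14522 genes, 9.48% were lower and 10.5% higher in VMHpvlm (limma, Benjamini-Hochberg adjusted p under 0.05). Of 26 receptors and coregulators 23 were tested, and 5 were lower and 4 higher in VMHpvlm, with a median log2 difference of 0.02, against 0.00247 over all tested genes. Esr1 was at 513 ± 74.0 in VMHpvlm and 1490.5 ± 63.8 in VMHpvll (log2 difference -1.55, limma adjusted p = 2.03e-22). Esr2, the beta receptor, was at 15.0 ± 4.77 in VMHpvlm and 37.3 ± 5.15 in VMHpvll (limma adjusted p = 0.00122, 0.0798 by DESeq2). Gper1, a membrane receptor for oestrogen, was at 11.1 ± 7.31 in VMHpvlm and 27.8 ± 6.70 in VMHpvll (limma adjusted p = 0.00577, 0.155 by DESeq2). Without the KH_161103 pair its limma adjusted p was 0.208.

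The coregulator Nrip1, which represses nuclear receptors, was lower in VMHpvlm, at 693 ± 40.7 against 905 ± 15.7. The transcriptional coregulator Cited2 was higher in VMHpvlm, at 349 ± 17.8 against 173 ± 22.8 (log2 difference 1.01). Ncor1, a corepressor named after its values were seen, was higher in VMHpvlm with a log2 difference of 0.13. Foxa1 and Gata3, pioneer partners of the oestrogen receptor in human breast cells, were listed at 0 in all 6 libraries.

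Genes that make or break down oestrogens were called at about the share of all genes. Of 15 such genes 13 had a row and 9 were tested, and 1 was lower and 1 higher in VMHpvlm (22.2% called in either direction, against 9.48% lower and 10.5% higher over all genes), with a median of -0.00424. Cyp19a1, the aromatase that makes oestradiol from testosterone, was at 14.5 ± 3.29 in VMHpvlm and 20.95 ± 6.63 in VMHpvll, a difference that did not pass (limma adjusted p = 0.385). Hsd17b7, which acts in the synthesis of oestradiol and cholesterol, was higher in VMHpvlm at 70.8 ± 14.2 against 47.1 ± 5.07 (limma adjusted p = 0.0421, and 0.0941 without the pair block). Hsd17b11 was lower in VMHpvlm at 136 ± 16.7 against 181 ± 4.09 (limma adjusted p = 0.0135, and 0.0584 without the F19 pair). By DESeq2 neither was called, and without the KH_161103 pair neither was called by limma.

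Genes known to respond to oestrogen in breast cancer cells, uterus or pituitary went both ways. Of 46 genes 36 were tested, and 11 were lower and 4 higher in VMHpvlm, with a median of -0.12. The share called in either direction was 41.7%, against 9.48% lower and 10.5% higher over all tested genes. Vegfa, a growth factor of blood vessels, was lower in VMHpvlm at 391 ± 26.0 against 896 ± 89.6 (log2 difference -1.19), and Igf1, insulin-like growth factor, was lower at 16.9 ± 0.66 against 65.5 ± 16.7 (-1.87). The neuropeptide gene Gal was lower in VMHpvlm at 44.3 ± 7.75 against 133 ± 15.6, as was Ccnd1, encoding cyclin D1, at 86.5 ± 22.3 against 174 ± 31.0. Exons of Ccnd1 overlap another gene, LTO1. The 4 that were higher in VMHpvlm, named after their values were seen, were the transcription factors Myc (log2 difference 1.07) and Klf10 (0.72), the insulin receptor substrate Irs1 (0.26) and the cadherin Celsr2 (0.16). The trefoil factor gene Tff1, a classical oestrogen target of breast cancer cells, was listed at 0 in all 6 libraries. Markers of vessels were also lower in VMHpvlm, as given above, and their part in the Vegfa value was not tested.

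A list of 20 genes held those known from VMHvl neurons with oestrogen receptor or for expression that differs between the sexes in the hypothalamus. Of these 19 were tested, and 8 were lower and 3 higher in VMHpvlm, with a median of -0.11. In either direction 57.9% were called, against 9.48% lower and 10.5% higher over all tested genes. Knowledge of the listed genes may draw on these same libraries, so the list is not independent evidence of its direction. Cckar, a cholecystokinin receptor, was lower in VMHpvlm at 23.1 ± 4.66 against 411 ± 42.8, and Mc4r, the melanocortin receptor, at 123 ± 10.9 against 557 ± 94.6. Irs4, an insulin receptor substrate, was lower at 1785 ± 70.1 against 2773 ± 88.3. Exons of Irs4 overlap Gm15295. Tac1, the precursor of substance P, was at 693 ± 58.0 in VMHpvlm and 667 ± 23.0 in VMHpvll, a difference that did not pass (limma adjusted p = 0.664). Among those higher in VMHpvlm, and named after their values were seen, were the oxytocin receptor Oxtr (log2 difference 0.44) and Dlk1 (0.53).

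**Figure D4:**
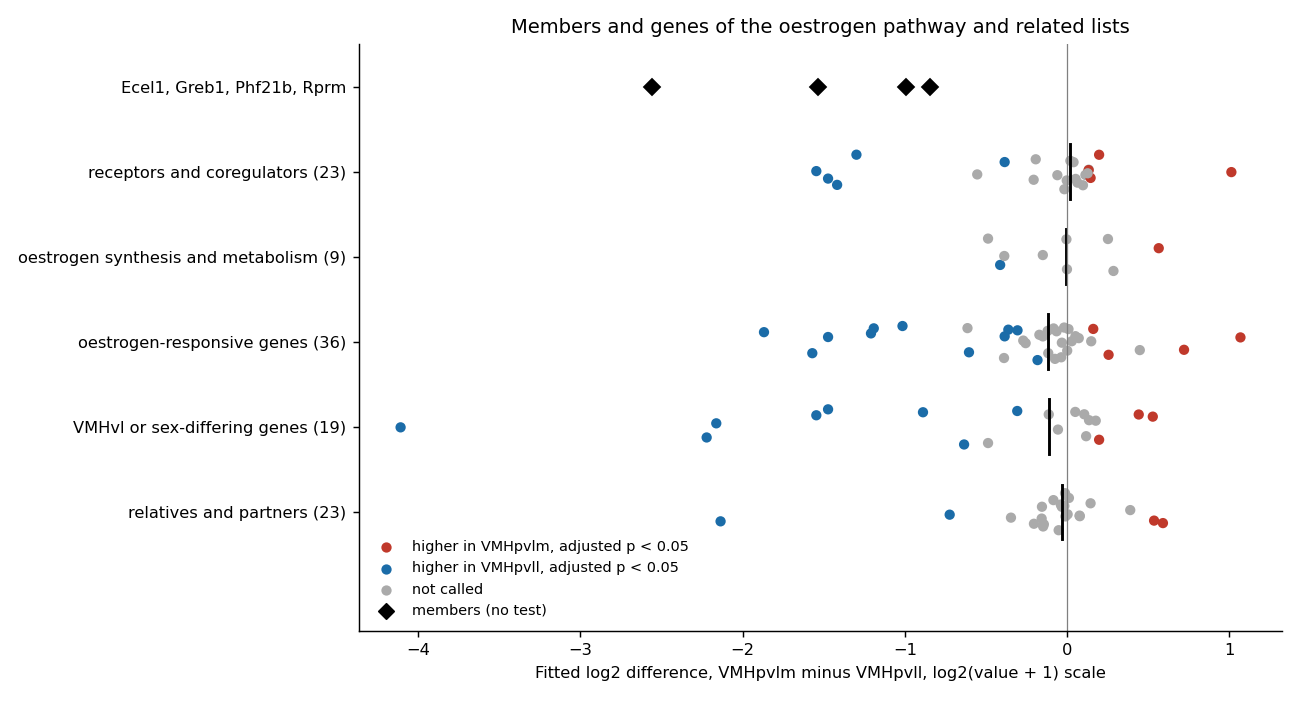
Fitted differences in log2(value + 1) between VMHpvlm and VMHpvll, with negative values lower in VMHpvlm, of the 4 genes (black diamonds, no test) and of the tested genes of 5 lists, with the number tested in brackets and a black line at each median. Red points were called higher in VMHpvlm and blue points higher in VMHpvll, and the 4 genes lie between -2.56 and -0.84 while the list medians lie between -0.12 and 0.02.

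The nearest relatives of the 4 genes did not pass the test between the regions with all 6 libraries. Of 28 relatives and partners 23 were tested, and 2 were lower and 2 higher in VMHpvlm, with a median of -0.03. Thus 17.4% were called in either direction, against 9.48% lower and 10.5% higher over all tested genes. Ece1 and Ece2, the endothelin-converting enzymes that resemble Ecel1, were at 741 ± 7.98 and 758 ± 56.7 in VMHpvlm and at 820.2 ± 74.1 and 763 ± 37.8 in VMHpvll (limma adjusted p = 0.106 and 0.941). Exons of Ece2 overlap Gm49333. Without the F19 pair Ece1 passed, with a log2 difference of -0.21 (limma adjusted p = 0.0463). Mme, which encodes neprilysin of the same peptidase family, was at 23.1 ± 0.45 in VMHpvlm and 26.8 ± 9.16 in VMHpvll, a difference that did not pass (limma adjusted p = 0.785). Phex, another member of that family, was below the filter, at 4.12 ± 3.65 in VMHpvlm and 2.27 ± 1.02 in VMHpvll.

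Greb1l, the paralogue of Greb1, was at 197 ± 10.03 in VMHpvlm and 228 ± 18.2 in VMHpvll (log2 difference -0.20, limma adjusted p = 0.198), against -0.99 for Greb1. Phf21a, the paralogue of Phf21b and a subunit of the LSD1-CoREST histone demethylase complex, was at 656 ± 31.6 in VMHpvlm and 623 ± 38.0 in VMHpvll (log2 difference 0.08, limma adjusted p = 0.476), against -2.56 for Phf21b. Kdm1a, which encodes the demethylase LSD1 itself, was at 536 ± 47.3 in VMHpvlm and 556 ± 51.1 in VMHpvll, a difference that did not pass (limma adjusted p = 0.715). Of its CoREST partners, Rcor1 was higher in VMHpvlm at 192 ± 26.8 against 132 ± 15.6, and Rcor2 was lower at 36.3 ± 3.83 against 60.5 ± 4.57. By DESeq2 neither was called (adjusted p = 0.0975 and 0.274), and Rcor2 was at 0.120 by limma without the F20 pair. Exons of Rcor1 overlap Gm48632.

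Rprml, the paralogue of Rprm, was at 65.5 ± 14.6 in VMHpvlm and 68.9 ± 11.3 in VMHpvll (log2 difference -0.08, limma adjusted p = 0.820), against -0.84 for Rprm. Trp53, the gene of p53, was at 75.7 ± 12.6 in VMHpvlm and 95.8 ± 6.06 in VMHpvll (limma adjusted p = 0.151), and Cdkn1a, a standard p53 target, was at 11.9 ± 0.85 and 9.25 ± 3.88 (0.621). Exons of Cdkn1a overlap AC167363.2. Gadd45a, another gene that p53 induces, was lower in VMHpvlm at 124 ± 10.6 against 546 ± 42.5 (log2 difference -2.14). The exons of Gadd45a overlap E230016M11Rik, so its reads are uncertain. Wee1, a kinase that holds back mitosis, was higher in VMHpvlm at 127 ± 21.2 against 83.8 ± 8.17 (limma adjusted p = 0.00313, 0.139 by DESeq2 and 0.0877 by limma without the F19 pair). Ccnb1, Cdk1 and Cdc25c, genes of dividing cells on which the arrest by Rprm is known to act, were below the filter, with means of 0.30, 1.22 and 0.30 in VMHpvlm, and of 0.73 for Cdk1 in VMHpvll, where Ccnb1 and Cdc25c were listed at 0.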

How the data were processed

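Libraries were made from laser-captured tissue with a stranded total RNA kit, per the labels' protocols, and the submitters' processing notes name HISAT2, featureCounts and mm10. The sources used here do not state tool versions, the annotation, the scaling tool or the strand setting. The deposited table gives a normalised signal per gene. Its non-zero values were whole multiples, within 0.05 reads, of what 1 read is worth in that library (100% in all 6), so whole reads could be recovered.

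The 14522 genes whose mean reached 10 were tested on the log2(value + 1) scale, by lmFit and a trended, robust eBayes of limma 3.58.1 (R 4.3.3). The model held region and, as a fixed block, the name shared by titles. Genes were called at a two-sided p under 0.05 after Benjamini-Hochberg adjustment over all tested genes. Differences on this scale understate the change of low genes. The block left 2 residual degrees of freedom and the variance prior added a median of 39.9, so the p-values lean on variance pooled over genes. No label says that a shared name is 1 animal, and the spread that p-values measure, between these libraries, may be technical. The names were taken to pair the libraries because the titles of both regions share them. Over genes, same-named libraries deviated together from their region means (r = 0.26, 0.24 and 0.36). Other combinations had r of -0.25 to 0.0067. Deviations from a region mean cancel out within the region, so these lower values add no separate support for the pairing. Counts differed beyond sampling noise for every pair of libraries from a region (chi-square per degree of freedom 5.80 to 10.4), and each was kept as a replicate.

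The 4 genes and the gene lists were chosen with earlier results of these data known. Genes named were those 4, others listed by name, up to 5 called genes per list by smallest p with 1 sign in 3 pairs, and the 3 nearest profiles per gene. Exon lengths, positions and overlaps came from GENCODE M21 and promoters from RefSeq (GRCm38.p6). The limma step was tested on simulated data. Alternatives included count tests of the recovered reads by DESeq2 1.42.0 and by edgeR 4.0.16. Some results are not reported here.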

Additional observations from a re-analysis of the deposited data

How the results depend on the processing

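The 4 genes were lower in VMHpvlm under all 20 alternatives run. Their log2 differences lay between -1.61 and -1.44 for Ecel1, -1.13 and -0.85 for Greb1, -2.77 and -2.45 for Phf21b, and -0.94 and -0.76 for Rprm, and that of Phf21b was -2.77 without the F19 library of VMHpvlm. The count of 2905 genes called between regions became 1230 by DESeq2, 422 by limma without trend and robust, and 1800 without the replicate block. It was 1365 to 2868 with a library or pair left out. With libraries scaled to the same total, 1750 genes were higher and 1219 lower in VMHpvlm.

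Of the receptors and coregulators, 9 were called by limma, 5 by DESeq2, 3 without trend and robust, and 4 to 9 with a library or pair left out. For oestrogen synthesis and metabolism these counts were 2, 0, 0 and 0 to 2, with 1 without a filter and 1 without the replicate block. For oestrogen-responsive genes they were 15, 9, 5 and 10 to 16. For genes of the VMHvl 11 became 5 without trend and robust and 9 to 12 with a library or pair left out. For relatives and partners they were 4, 1, 1 and 1 to 4. The cause of these moves was not tested. The pair-name term of Ecel1 reached an adjusted p of 0.0384 by limma with a mean of at least 50.

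Some uncalled genes changed sign. Ece2 was at 0.0131 with the same total and between -0.0704 and 0.0534 with a library or pair left out, where Kdm1a lay between -0.19 and 0.0529, Mme between -0.33 and 0.10, Rprml between -0.23 and 0.0931 and Tac1 between -0.00124 and 0.12. Of 22 named genes called, 13 kept their call under all alternatives run; the exceptions included Esr2, Gper1, Hsd17b11, Hsd17b7, Nrip1, Rcor1, Rcor2 and Wee1. Without the F19 pair Ece1 gained a call (adjusted p = 0.0463 by limma), and without the F20 pair Slc17a6 did (0.0484). What depth limits was not tested.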
